A study of Mus musculus with 8 samples.

Results

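The set examined here is 58 genes of mitosis, chosen by name for their known parts in cell division and not by their values. It was measured in RAW264.7, a mouse macrophage-like line transformed by Abelson leukaemia virus that divides continuously in culture. All 58 were found by symbol among the 10639 genes of the expression table, and all 58 passed the filter on low values that left 10289 genes for testing. RNA of 8 libraries was sequenced in 4 groups of 2, and every group was genetically wild type. The first group was untreated. A second received lipopolysaccharide (LPS, a bacterial cell wall component that activates macrophages through TLR4) at 50 ng/mL for 12 h. The next received antibodies against the scavenger receptor CD36 at a dilution of 1 in 100 for 12 h. The last, called the combination here, received both for 12 h, with no doses in its labels. None of these groups received an antibody of another specificity. Nothing in the labels says that the 2 libraries of a group came from separate cultures, so p-values measure the spread between these libraries.

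Mitosis is the stage at which copied chromosomes are condensed, attached to a spindle of microtubules and pulled into daughter cells. Entry is driven by cyclin-dependent kinase 1 with cyclins A and B and by Polo-like and Aurora kinases. A checkpoint at the kinetochore holds anaphase back until every chromosome is attached, and the anaphase-promoting complex then marks cyclin B and securin for destruction. The messages of most of these proteins are made in G2 and early mitosis, under FOXM1, B-MYB and the MuvB complexes, and their level in a culture is widely used as a sign of cell division. In macrophages, LPS is known to slow proliferation.

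Values are in FPKM, fragments per kilobase of transcript scaled to each library's total, which allows levels of different genes to be compared. The deepest library held about 71700000 reads and the shallowest about 47900000, as estimated from the steps between low values, and the least covered mitosis gene had 313 reads in its lowest library. Mitochondrially encoded genes took 15.7% of all FPKM in replicate 1 of anti-CD36 and 3.28% to 6.62% in the other 7 libraries. All 8 of 8 macrophage markers looked for were present, with a summed level of 3616 to 5377 FPKM, and none of the 8 fibroblast or 5 epithelial markers was among the genes analysed here. Of the markers of other blood cells, 1 of 6 for T and NK cells was present at 1.72 to 4.32 FPKM, 1 of 4 for B cells at 0.0292 to 1.46 FPKM, and 1 of 6 for granulocytes at 2.97 to 4.92 FPKM. All 10639 genes of the expression table were above 0 in every library. A marker missing from it is therefore not shown to be absent from the cells, and shares of all tested genes refer to these genes only.

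Nearly the whole set was lower after LPS. Together the 58 genes made up 0.596% and 0.646% of all FPKM in the untreated libraries and 0.192% and 0.204% with LPS. The median gene of the set stood at 24.5 and 24.2 FPKM in the untreated libraries and at 7.66 and 8.28 FPKM with LPS. Of the 58 genes, 53 fell and 0 rose (limma on log2(FPKM + 1), Benjamini-Hochberg adjusted p under 0.05 over all tested genes), where 37.5% of all tested genes fell and 17.0% rose. A fall of at least 1 on that log2 scale was found for 45 of the 58, against 10.7% of all tested genes. The median difference of the set was −1.33, and that of all tested genes was −0.19. Both LPS libraries lay below both untreated libraries for 56 of 58 genes, where 54.5% of all tested genes did so. These are bulk samples, in which fewer cells in mitosis and less RNA per dividing cell cannot be told apart. With median-ratio size factors in place of the FPKM scale, the median of all tested genes moved to 0.00 and that of the set to −1.11.

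**Figure D1:**
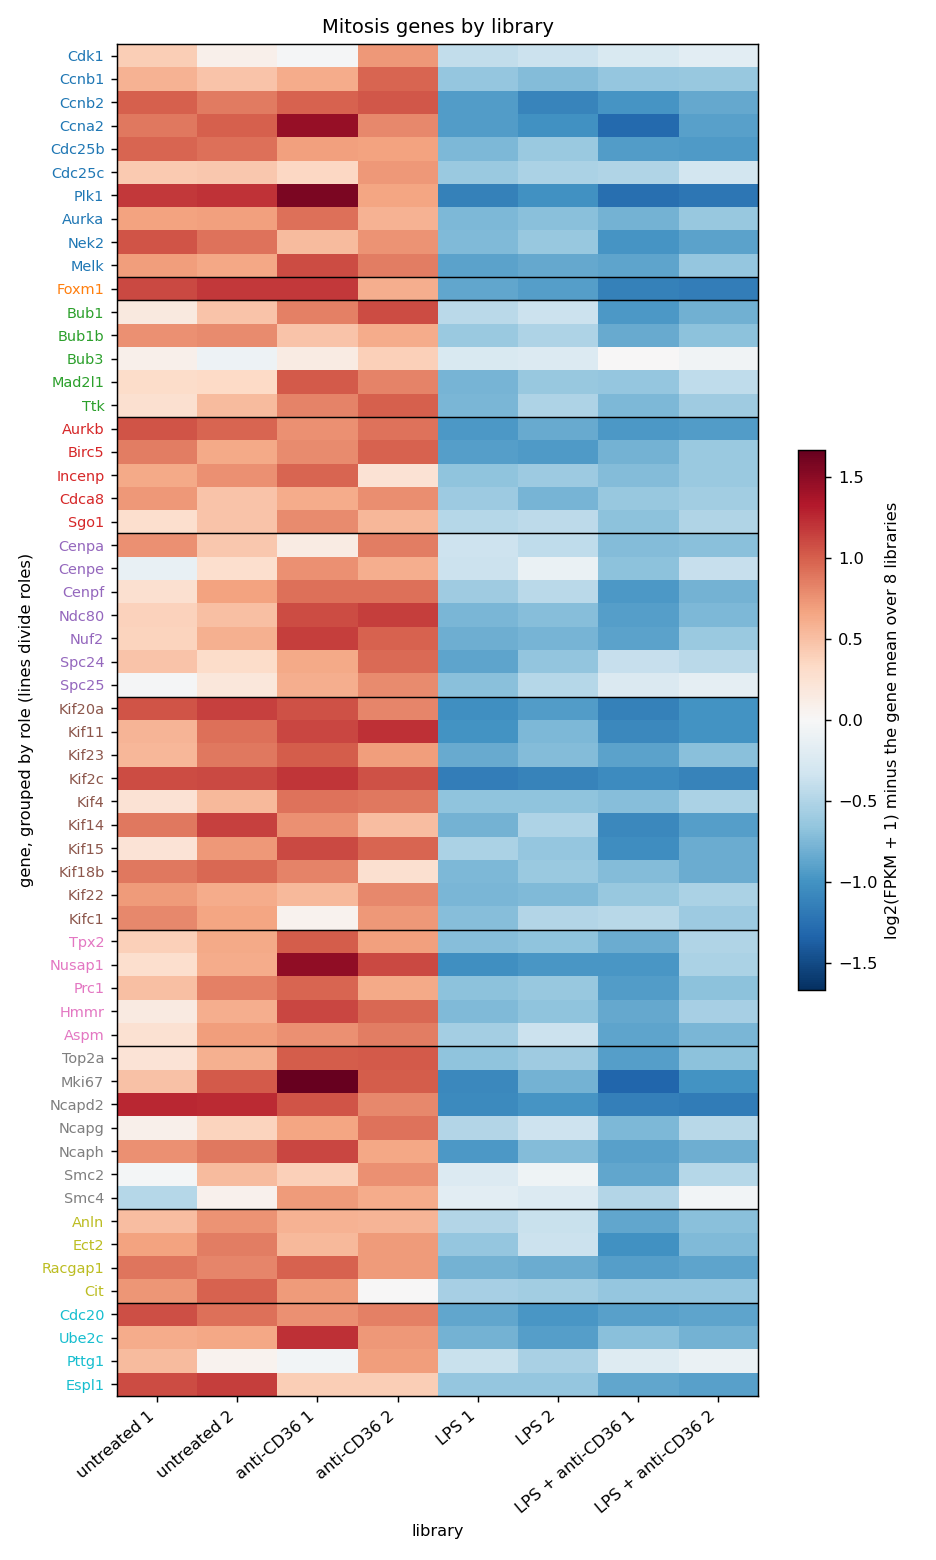
Each row is 1 of the 58 mitosis genes and each column 1 of the 8 libraries, and colour gives log2(FPKM + 1) minus the gene's mean over the 8 libraries, with lines dividing the roles. The LPS and combination columns are below the untreated and anti-CD36 columns in nearly every row, and Smc4 and Bub3 are among the rows with the least contrast.

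Since the genes moved together, their start sites were searched for the 2 elements known to bring G2 and mitosis genes under common control. The cell-cycle genes homology region (CHR), bound by MuvB complexes, was searched as TTTGAA or TTTAAA, and the CCAAT box, bound by NF-Y, as CCAAT, on both strands, where TTCAAA and ATTGG are the reverse readings. RefSeq windows of 300 bases on GRCm38.p6, from 250 before to 50 after a gene's start, were matched to 49 of the 58 genes. The 8 stretches below, cut to 150 bases before and 30 after the start, show the highest-expressed genes (Ccnb2, Cdc20), genes with some of the largest falls (Plk1, Ncapd2), the cyclin-dependent kinase and the topoisomerase of the set (Cdk1, Top2a), a gene that did not pass the test with LPS (Bub3) and a gene that fell without any match in its stretch (Birc5). The full window of Birc5 has 1 TTTAAA outside the stretch, so Birc5 is counted below among the genes with a CHR hexamer. Capitals mark the matches.
Ccnb2: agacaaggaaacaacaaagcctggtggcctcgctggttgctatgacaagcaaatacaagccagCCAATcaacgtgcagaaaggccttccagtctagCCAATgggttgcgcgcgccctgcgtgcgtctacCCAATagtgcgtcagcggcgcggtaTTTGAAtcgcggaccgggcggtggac
Cdc20: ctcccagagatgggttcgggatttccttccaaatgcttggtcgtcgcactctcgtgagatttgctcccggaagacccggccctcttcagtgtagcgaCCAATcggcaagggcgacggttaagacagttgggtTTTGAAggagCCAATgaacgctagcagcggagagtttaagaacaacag
Plk1: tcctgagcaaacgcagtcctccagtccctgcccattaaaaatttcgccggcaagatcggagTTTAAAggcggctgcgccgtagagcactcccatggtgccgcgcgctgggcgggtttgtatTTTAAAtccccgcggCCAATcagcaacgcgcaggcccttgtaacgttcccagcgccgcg
Cdk1: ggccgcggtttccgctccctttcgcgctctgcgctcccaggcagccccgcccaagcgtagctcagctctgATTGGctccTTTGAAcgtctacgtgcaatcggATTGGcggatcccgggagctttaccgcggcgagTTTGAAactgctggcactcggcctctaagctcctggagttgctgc
Top2a: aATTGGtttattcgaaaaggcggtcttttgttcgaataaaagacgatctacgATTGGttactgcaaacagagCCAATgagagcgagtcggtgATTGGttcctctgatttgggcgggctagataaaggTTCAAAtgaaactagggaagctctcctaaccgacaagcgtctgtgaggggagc
Ncapd2: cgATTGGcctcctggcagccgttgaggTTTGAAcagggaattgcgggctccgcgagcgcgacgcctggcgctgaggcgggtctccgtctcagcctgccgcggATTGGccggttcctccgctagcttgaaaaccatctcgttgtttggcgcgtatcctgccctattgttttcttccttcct
Bub3: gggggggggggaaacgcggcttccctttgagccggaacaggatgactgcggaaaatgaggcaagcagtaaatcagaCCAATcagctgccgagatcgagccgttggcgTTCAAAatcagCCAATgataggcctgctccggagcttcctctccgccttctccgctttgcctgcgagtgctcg
Birc5: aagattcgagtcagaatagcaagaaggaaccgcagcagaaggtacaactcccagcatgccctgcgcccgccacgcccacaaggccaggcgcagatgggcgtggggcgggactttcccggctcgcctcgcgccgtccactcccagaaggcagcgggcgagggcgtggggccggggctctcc
In the line of Ccnb2, 3 CCAAT boxes stand upstream of 1 CHR hexamer, and in that of Cdk1 the 2 CHR hexamers each follow a CCAAT box read on the other strand. The coordinates, in the same order, are chr9:70421525-70421704 (minus), chr4:118437314-118437493 (minus), chr7:122159285-122159464 (plus), chr10:69352883-69353062 (minus), chr11:99024160-99024339 (minus), chr6:125191557-125191736 (minus), chr7:131560220-131560399 (plus) and chr11:117849087-117849266 (plus), with the strand of each gene in brackets.

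A CHR hexamer was found in 38 of the 49 matched genes (77.6%) and in 22.4% of the 8071 tested genes with a window. The form TTTGAA was in 35 of them (71.4%, against 14.4%) and TTTAAA in 11 (22.4%, against 10.7%). At least 1 CCAAT box was found in 37 of 49 (75.5%, against 43.2%), and at least 2 in 24 (49.0%, against 17.6%). Both elements stood together in 33 of the 49 genes (67.3%), compared with 9.08% of all matched genes. Of the CHR matches in the 52 windows of the set, 34 of 61 (55.7%) began between 50 bases before and 25 after the start. This range was chosen after the positions were seen, and 18.8% of the matches of all tested genes lay in it. Bub3, Ect2 and Prc1 have 2 overlapping windows each, so the same site can be counted in both. The E-box CACGTG was in 4 of the 49 genes (8.16%, against 12.3%), the TATA box TATAAA in 1 (2.04%, against 8.004%), and the E2F sites TTTCCCGC or TTTGGCGC in 3 (6.12%, against 3.92%). The median LPS difference was −1.31 in the 38 genes with a CHR hexamer and −1.43 in the 11 without. Among genes outside the set, 39.0% of those with a CHR hexamer fell with LPS and 38.2% of those without. These shares were 41.1% and 37.9% for TTTGAA, 35.8% and 38.7% for TTTAAA, and 39.6% and 37.5% for a CCAAT box. For at least 2 CCAAT boxes they were 44.4% and 37.1%, and for both elements together 43% and 38.0%. What these elements contribute to the falls was not tested. A match is a description of letters in a window and not a measured site.

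**Figure D2:**
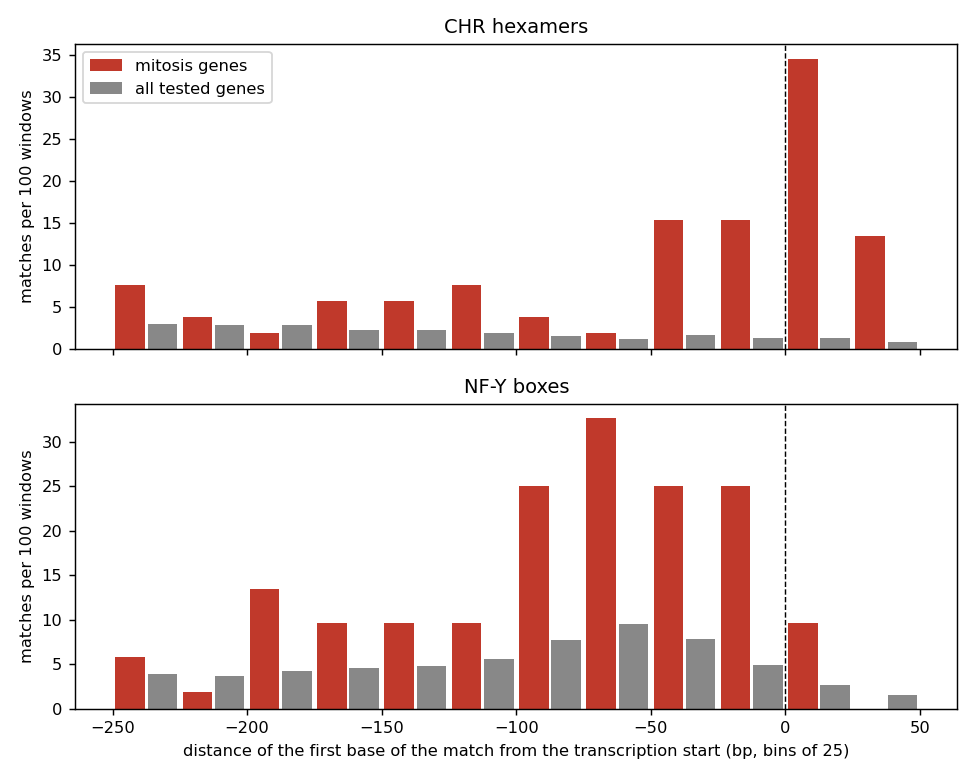
Bars give matches per 100 windows in bins of 25 bp along the distance from the transcription start, for CHR hexamers (top) and CCAAT boxes (bottom), in the 52 windows of the mitosis genes and the 10260 windows of all tested genes. The mitosis genes peak at 34.6 CHR matches and 32.7 CCAAT matches per 100 windows, and all tested genes at 3.002 and 9.51.

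The kinases and cyclins of mitotic entry showed some of the strongest falls. Of the 10 genes of this role, 9 fell with LPS, with a median difference of −1.59. Plk1, the Polo-like kinase that acts from entry through cytokinesis (chr7:122159439-122169873, mm10), read 69.2 and 70.04 FPKM in the untreated libraries, 13.1 and 14.3 with LPS, 90.8 and 47.7 with the antibodies and 11.9 and 12.4 with both. The LPS mean was 19.7% of the untreated mean, and Plk1 fell by 2.26 on the log2 scale (SE 0.26, adjusted p = 0.000307). The LPS and untreated values of Plk1 did not overlap, and the anti-CD36 libraries lay on either side of the untreated pair. Ccnb2, cyclin B2, had the highest untreated level of the set, at 105 and 94.97 FPKM, and read 26.6 and 23.7 with LPS, 103 and 107 with the antibodies and 25.6 and 28.2 with both. Ccnb2 fell by 1.95 with LPS (SE 0.12, adjusted p = 2.03e-05), and the anti-CD36 pair lay close to the untreated pair. Ccna2, cyclin A2, which partners CDK2 in S phase and CDK1 later, read 65.9 and 71.3 FPKM untreated, 18.02 and 17.1 with LPS, 98.7 and 62.5 with the antibodies and 13.8 and 18.4 with both. It fell by 1.91 (SE 0.22, adjusted p = 0.00034). The other genes of this role that fell were Nek2 (difference −1.66), a centrosome kinase, Cdc25b (−1.63) and Cdc25c (−1.02), the phosphatases that activate CDK1, Melk (−1.55), Aurka (−1.40), the centrosomal Aurora kinase, and Ccnb1 (−1.21).

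Cdk1, the kinase that all these cyclins serve, was the gene of this role that did not pass the test. It read 36.1 and 28.5 FPKM in the untreated libraries, 20.1 and 20.7 with LPS, 26.5 and 45.03 with the antibodies and 22.3 and 23.8 with both. Both LPS libraries lay below both untreated libraries, with a difference of −0.63 (SE 0.23, adjusted p = 0.052). Cdk1 passed in a fit of the LPS and untreated groups alone (limma adjusted p = 0.00233), where 44.9% of all tested genes fell. It missed the test with median-ratio size factors (−0.40, adjusted p = 0.146) and with the trend on GC content and length removed (−0.40, adjusted p = 0.168). Without untreated replicate 1 the difference was −0.46. The untreated and anti-CD36 pairs of Cdk1 each spread more widely than the LPS pair. Cdk1 with LPS stood at 63.2% of the untreated mean while its B2 partner stood at 25.2%.

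Foxm1, the forkhead factor that drives transcription of many of the other genes (chr6:128362967-128376146), read 30.3 and 32.1 FPKM untreated, 6.998 and 6.68 with LPS, 31.9 and 21.1 with the antibodies and 5.699 and 5.55 with both. It fell by 2.04 with LPS (SE 0.18, adjusted p = 9.43e-05), the fifth largest fall of the set. Among 23 regulators of the same programme, named by their biology (E2F factors, their DP partners, the pocket proteins, MuvB subunits and NF-Y), 17 fell with LPS and 1 rose, with a median of −0.79, where 37.5% of all tested genes fell and 17.0% rose, with a median of −0.19. They included Mybl2, B-MYB, which fell by 1.43, and E2f8, which fell by 2.17.

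Of the 5 spindle checkpoint genes, 4 fell with LPS, with a median difference of −1.03. Bub1b, the checkpoint protein BUBR1, read 83.3 and 85.1 FPKM untreated, 31.5 and 33.6 with LPS, 68.2 and 75.1 with the antibodies and 26.7 and 30.02 with both. It fell by 1.35 (SE 0.12, adjusted p = 9.01e-05), and neither LPS group overlapped either group without LPS. Ttk, the kinase MPS1, was a gene of low level, at 7.399 and 9.06 FPKM untreated, 3.098 and 3.89 with LPS, 11.4 and 12.96 with the antibodies and 3.15 and 3.63 with both. It fell by 1.04 (SE 0.14, adjusted p = 0.000798), beside Mad2l1, MAD2, which fell by 1.03, and Bub1, which fell by 0.73. Bub3, which carries BUB1 and BUBR1 to the kinetochore, read 29.3 and 26.03 FPKM untreated, 23.1 and 23.6 with LPS, 30.4 and 36.7 with the antibodies and 27.8 and 26.5 with both. Its LPS difference was −0.24 (SE 0.13, adjusted p = 0.147), and its LPS mean was 84.2% of the untreated mean where Bub1b stood at 38.7%. The LPS difference of Bub3 depended on the scale used. It was −0.01 with median-ratio size factors (limma adjusted p = 0.964) and 0.04 with the trend on GC content and length removed (adjusted p = 0.796). With mitochondrial genes left out and the libraries rescaled, it was −0.45 (adjusted p = 0.00845).

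**Figure D3:**
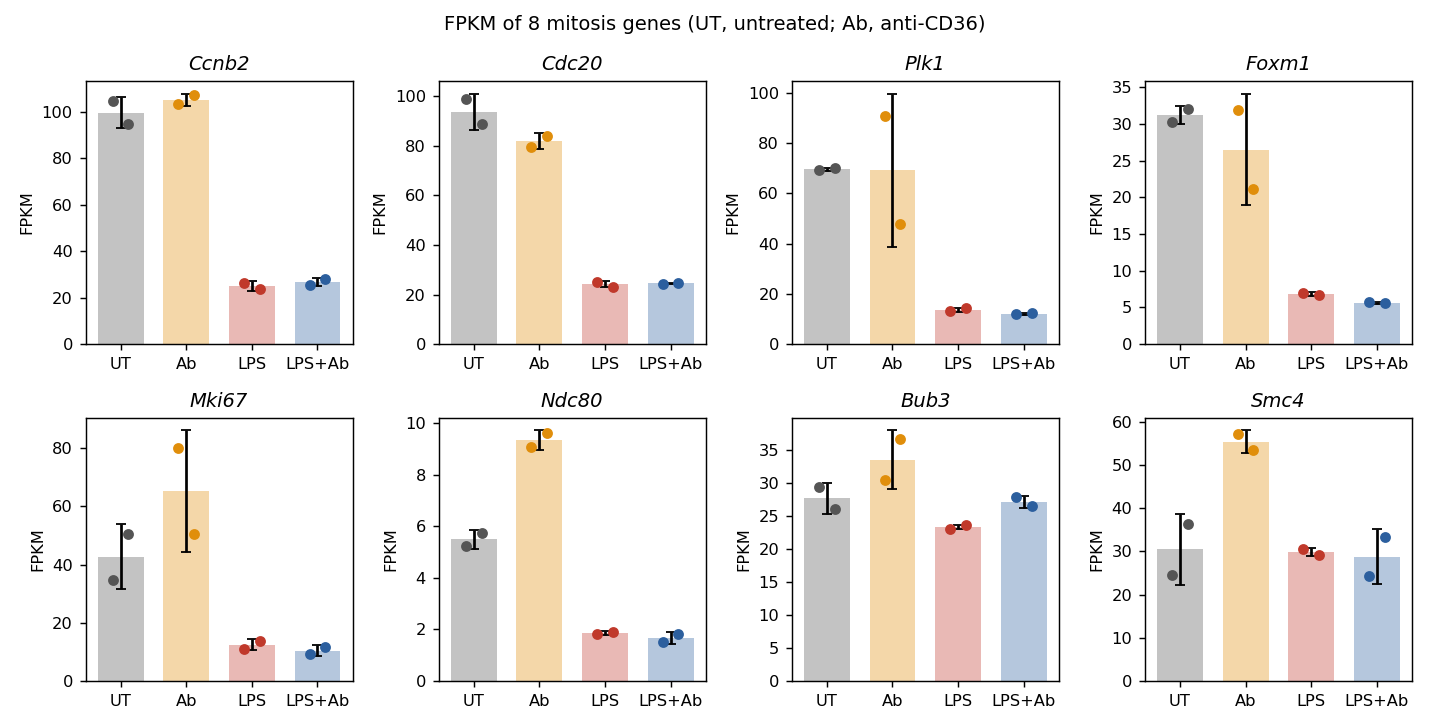
Bars are group means of FPKM with SD over 2 libraries, and points are the libraries, for 8 mitosis genes in untreated cells (UT), cells with anti-CD36 antibodies (Ab), with LPS and with both. Ccnb2, Cdc20, Plk1, Foxm1, Mki67 and Ndc80 lie lower in both LPS groups than in both groups without LPS, whereas Bub3 reads 23.1 and 23.6 FPKM with LPS and Smc4 30.4 and 29.2.

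All 5 genes of the chromosomal passenger complex and of centromere cohesion fell, with a median difference of −1.33. The complex corrects wrong spindle attachments and later helps to divide the cell. Its kinase Aurkb, Aurora B, read 64.96 and 61.4 FPKM untreated, 15.3 and 16.7 with LPS, 52.7 and 58.6 with the antibodies and 15.3 and 15.6 with both. Aurkb fell by 1.92 (SE 0.11, adjusted p = 1.57e-05). Birc5, survivin, the subunit that docks the complex on chromatin, read 39.4 and 33.7 FPKM untreated, 10.8 and 10.6 with LPS, 37.6 and 43.3 with the antibodies and 11.98 and 13.6 with both, and fell by 1.68 (SE 0.13, adjusted p = 5.35e-05). The scaffold Incenp fell by 1.33 and Cdca8, borealin, by 1.29. Sgo1, shugoshin, which protects cohesin at the centromere, fell by 0.83. For each of the 5 the LPS pair and the combination pair lay below both pairs without LPS.

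Of the 7 kinetochore genes, 6 fell, with a median difference of −0.99. Nuf2 and Ndc80, the subunits of the NDC80 complex that grips microtubules, fell by 1.28 and 1.18. Nuf2 read 11.4 and 13.4 FPKM untreated, 4.45 and 4.58 with LPS, 20.3 and 18.04 with the antibodies and 4.16 and 5.25 with both. Ndc80 read 5.23 and 5.75 FPKM untreated, 1.81 and 1.904 with LPS, 9.06 and 9.604 with the antibodies and 1.504 and 1.83 with both. In both genes the anti-CD36 pair was the highest and the LPS and combination pairs overlapped. Their partners at the other end of the complex fell by 1.17 for Spc24 and 0.66 for Spc25. Spc24 read 22.7 and 20.1 FPKM untreated, 8.21 and 9.73 with LPS, 25.4 and 31.7 with the antibodies and 12.1 and 11.4 with both. Cenpa, the histone variant that marks centromeres, fell by 0.99, and Cenpf, a large kinetochore and nuclear matrix protein, by 0.99. Cenpe, the kinetochore kinesin, read 5.55 and 7.68 FPKM untreated, 4.56 and 5.58 with LPS, 11.1 and 9.87 with the antibodies and 3.45 and 4.48 with both. The LPS and untreated values of Cenpe overlapped, with a difference of −0.32 (SE 0.18, adjusted p = 0.163).

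All 10 genes grouped here as kinesins, the motors that slide and shorten spindle microtubules, fell with LPS, with a median difference of −1.55. The kinesin Cenpe, placed above with the kinetochore genes, did not pass the test. Kif2c, the microtubule depolymerase MCAK (chr4:117159639-117182639), read 23.5 and 23.6 FPKM untreated, 4.14 and 4.29 with LPS, 25.1 and 22.9 with the antibodies and 4.52 and 4.31 with both. Kif2c fell by 2.23 (SE 0.10, adjusted p = 5.88e-06), the smallest adjusted p of the set in this comparison. Its 2 untreated libraries differed by less than the SE. Kif20a, which works at the central spindle, read 33.4 and 35.5 FPKM untreated, 7.13 and 7.67 with LPS, 33.6 and 28.2 with the antibodies and 6.601 and 7.25 with both, and fell by 2.08. Kif14, a partner of PRC1 and citron kinase, read 4.804 and 5.97 FPKM untreated, 0.835 and 1.201 with LPS, 4.36 and 3.504 with the antibodies and 0.494 and 0.677 with both, and fell by 1.66. Kif14 kept 18.9% of its untreated FPKM with LPS, a larger proportional change than its log2 difference shows because a pseudocount of 1 weighs on low values. Kif11, the bipolar motor that pushes spindle poles apart, fell by 1.62, Kif18b by 1.61, Kif23, the centralspindlin motor, by 1.495 and Kif22, a chromosome arm motor, by 1.42. The minus-end motor Kifc1 fell by 1.33, Kif4, which binds chromosome arms, by 1.06 and Kif15 by 1.06.

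The 5 spindle assembly factors fell, with a median difference of −1.20. Nusap1, which bundles microtubules near chromosomes, read 14.8 and 18.97 FPKM untreated, 5.38 and 5.65 with LPS, 35.3 and 26.98 with the antibodies and 5.64 and 7.999 with both, and fell by 1.45 (SE 0.20, adjusted p = 0.000706). Prc1, which crosslinks the antiparallel microtubules of the midzone, read 11.4 and 14.7 FPKM untreated, 4.48 and 4.64 with LPS, 16.2 and 12.6 with the antibodies and 3.59 and 4.47 with both, and fell by 1.33. Both genes were lowest in the groups with LPS, and only Nusap1 had its anti-CD36 pair wholly above the untreated pair. Tpx2, the activator of Aurora A, fell by 1.20, Hmmr, a centrosome and hyaluronan-binding protein, by 1.09, and Aspm, which acts at spindle poles, by 0.94.

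Genes of chromosome structure held both the largest and the smallest response of the set. Ncapd2, a condensin I subunit (chr6:125168007-125191701), read 52.2 and 51.9 FPKM untreated, 9.59 and 10.3 with LPS, 44.9 and 37.6 with the antibodies and 9.08 and 8.87 with both. It fell by 2.28 (SE 0.12, adjusted p = 9.93e-06), the largest difference among the 58. Ncaph, the subunit that closes the condensin I ring, read 28.05 and 30.5 FPKM untreated, 7.78 and 9.37 with LPS, 36.03 and 25.7 with the antibodies and 8.08 and 8.68 with both, and fell by 1.66. The subunit Ncapg fell by 0.65. The 2 ATPases that form the core of both condensin complexes did not pass the test. Smc4 (chr3:69004738-69034623) read 24.6 and 36.3 FPKM untreated, 30.4 and 29.2 with LPS, 57.3 and 53.5 with the antibodies and 24.3 and 33.3 with both, so that its LPS values lay inside the untreated range (difference 0.00, SE 0.21, adjusted p = 0.993). Smc2 read 17.2 and 25.7 FPKM untreated, 14.8 and 16.6 with LPS, 23.5 and 30.5 with the antibodies and 9.18 and 12.3 with both (difference −0.40, adjusted p = 0.161). Smc2 passed with the replicate number as a block (limma adjusted p = 0.0396) and with the trend on GC content and length removed (difference −0.58, adjusted p = 0.0202). Within condensin I, the LPS means were 19.1% of the untreated mean for Ncapd2 and 29.3% for Ncaph, with Ncapg at 60.5%, Smc2 at 73.2% and Smc4 at 98.01%.

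Mki67, the proliferation marker Ki-67 that coats mitotic chromosomes, read 34.8 and 50.6 FPKM untreated, 11.1 and 13.8 with LPS, 80.1 and 50.4 with the antibodies and 9.15 and 11.8 with both. It fell by 1.68 with LPS (SE 0.26, adjusted p = 0.00136), and its pairs without LPS were widely spread. Top2a, the topoisomerase that untangles sister chromatids, fell by 1.05. The role as a whole counted 5 falls among 7 genes.

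The 4 genes of cytokinesis fell, with a median difference of −1.35. Racgap1, a centralspindlin subunit, read 28.8 and 27.3 FPKM untreated, 8.303 and 8.07 with LPS, 30.9 and 25.4 with the antibodies and 7.51 and 7.73 with both, and fell by 1.66 (SE 0.12, adjusted p = 3.94e-05). Cit, citron kinase of the midbody, had the lowest untreated level of the set and read 3.25 and 4.08 FPKM untreated, 0.735 and 0.708 with LPS, 3.198 and 1.56 with the antibodies and 0.635 and 0.631 with both. Cit fell by 1.43, to 19.7% of its untreated mean. Ect2, the exchange factor that activates RhoA at the cleavage site, fell by 1.27, and Anln, anillin of the contractile ring, by 1.07.

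The 4 genes of anaphase and proteolysis also fell, with a median of −1.62. Cdc20, the activator of the anaphase-promoting complex, read 98.96 and 88.7 FPKM untreated, 25.02 and 23.3 with LPS, 79.7 and 84.1 with the antibodies and 24.2 and 24.7 with both, and fell by 1.91 (SE 0.11, adjusted p = 1.66e-05). Espl1, separase, the protease that cuts cohesin (chr15:102296266-102324357), read 19.1 and 19.9 FPKM untreated, 5.02 and 5.02 with LPS, 11.6 and 11.5 with the antibodies and 4.16 and 4.01 with both, and fell by 1.77 (SE 0.09, adjusted p = 1.17e-05). The 4 pairs of Espl1 did not overlap one another. Ube2c, the ubiquitin-conjugating enzyme of the complex, fell by 1.48. Pttg1, securin, the inhibitor of separase, read 40.5 and 29.02 FPKM untreated, 21.4 and 18.8 with LPS, 26.9 and 46.04 with the antibodies and 23.9 and 25.8 with both, and fell by 0.74 (SE 0.25, adjusted p = 0.039). The call on Pttg1 was lost in 8 of the alternative fits, with either LPS library or untreated replicate 1 left out among them.

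In untreated cells the highest means were Ccnb2 at 99.7 ± 6.74 FPKM (SD, n = 2), Cdc20 at 93.8 ± 7.26, Bub1b at 84.2 ± 1.27 and Incenp at 79.9 ± 5.49. Ccnb2 and Cdc20 were not separated, since the lower library of Ccnb2 read 94.97 FPKM and the upper library of Cdc20 98.96. Under LPS, Bub1b led at 32.5 ± 1.53 FPKM, followed by Incenp at 31.1 ± 0.929 and Smc4 at 29.8 ± 0.868, with Ccnb2 in place 5. The LPS values of Incenp overlapped those of Bub1b and those of Smc4. Smc4 was in place 20 of 58 in untreated cells and 3 with LPS, whereas Plk1 moved from place 6 to 18. At the bottom stood Cit, Cenpf and Aspm in untreated cells and Cit, Kif14 and Cenpf with LPS.

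A further 108 mitosis genes were named from the same biology in 6 lists. Of the 106 tested, 66 fell and 5 rose with LPS, with a median difference of −0.61, where 37.5% of all tested genes fell, 17.0% rose and the median was −0.19. Entry and exit regulators gave 12 falls among 16, led by Wee1, the kinase that restrains CDK1, which fell by 2.11, and Ccnf, cyclin F, which fell by 1.93. Further kinetochore genes gave 24 falls and 1 rise among 30, with Oip5, a CENP-A loading factor, falling by 1.74. Spindle, centrosome and midbody genes gave 16 falls and 2 rises among 28, and all 3 condensin II subunits fell. Cohesin gave 5 falls and 1 rise among 12, and the anaphase-promoting complex with its regulators 6 falls and 1 rise among 17. Both shares of falls, 41.7% and 35.3%, are near the 37.5% of all tested genes. The anaphase-promoting complex list includes its inhibitor Fbxo5, which fell by 1.74.

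The set was lower with LPS in antibody-treated cells as well. Compared with anti-CD36 alone, the combination showed 55 of the 58 lower and 0 higher, where 31.7% of all tested genes were lower and 15.4% higher. The difference reached at least 1 for 51 of the 58, against 8.32% of all tested genes. The median was −1.59 for the set and −0.15 for all tested genes, and all 58 had both combination libraries below both anti-CD36 libraries, as 45.5% of all tested genes did. The differences share no library with those of LPS against untreated cells, but both tests use 1 estimate of the spread from all 8 libraries. The largest differences were those of Mki67 (−2.50, SE 0.26, adjusted p = 0.000254), Plk1 (−2.35, SE 0.26, adjusted p = 0.000309) and Ccna2 (−2.23, SE 0.22, adjusted p = 0.000189). Cdk1 (−0.57, adjusted p = 0.0806), Bub3 (−0.29, adjusted p = 0.0966) and Pttg1 (−0.49, adjusted p = 0.15) did not pass the test. Smc4 stood at 51.98% of its antibody-treated mean in the combination, Smc2 at 39.8% and Cenpe at 37.8%, and all 3 passed the test here. Without combination replicate 1, Smc4 did not pass (−0.72, limma adjusted p = 0.0625), and without combination replicate 2, Kifc1 did not (−0.85, adjusted p = 0.0634). Across the 58 genes the 2 LPS differences had a Spearman rho of 0.61, and across all 10289 tested genes 0.88, as descriptions over genes that share their libraries. Against untreated cells, 53 of the 58 were lower in the combination, where 41.8% of all tested genes were lower, with a median of −1.37.

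**Figure D4:**
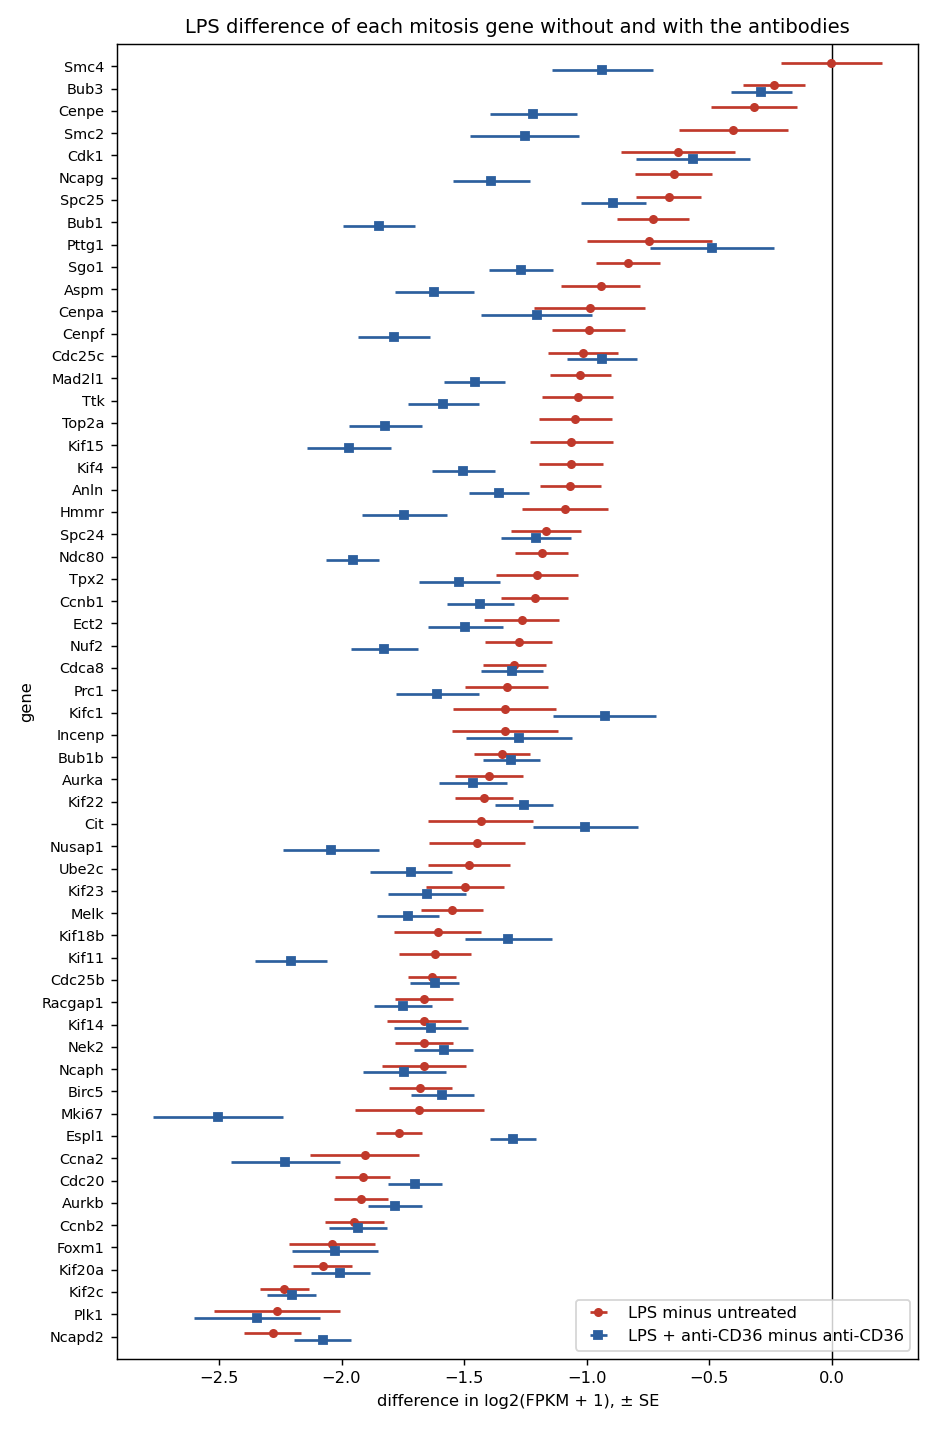
Circles give the difference in log2(FPKM + 1) between LPS and untreated cells and squares that between the combination and anti-CD36 alone, with the SE, for each of the 58 genes. Circles run from −2.28 for Ncapd2 to 0.00 for Smc4 and squares from −2.50 for Mki67 to −0.29 for Bub3.

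Whether the LPS difference itself depended on the antibodies was tested as an interaction, and 0 of 58 genes passed, while 0.00972% of all tested genes passed with a higher value and 0% with a lower one. At an unadjusted p under 0.05 there were 18 of the 58, beside 1396 of the 10289 tested genes. The interaction uses the same untreated and anti-CD36 libraries as the other comparisons. The estimates were negative, meaning a deeper fall with the antibodies, for 37 of the 58 and for 4307 of the 10289 tested genes. In the set they were lowest for Bub1 (−1.12, 95% interval −1.60 to −0.63, limma adjusted p = 0.208), Smc4 (−0.93, −1.62 to −0.25), Kif15 (−0.91, −1.47 to −0.35) and Cenpe (−0.90, −1.48 to −0.32), and highest for Espl1 (0.46, 0.16 to 0.77). For Bub1 the libraries read 23.7 and 29.8 FPKM untreated, 15.2 and 16.1 with LPS, 38.5 and 45.9 with the antibodies and 10.3 and 11.6 with both, so the combination was the lowest pair and the antibody pair the highest. Kif15 read 4.82 and 7.17 FPKM untreated, 2.44 and 2.16 with LPS, 9.65 and 8.69 with the antibodies and 1.42 and 1.78 with both, in the same order. Without anti-CD36 replicate 1, 4 genes passed (Bub1, Ndc80, Ncapg and, in the other direction, Cit), as did 5.98% of all tested genes. Without anti-CD36 replicate 2, Bub1 passed, as did 2.3% of all tested genes. Both counts are near the share of all tested genes.

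In LPS-treated cells the antibodies moved none of the 58 past the test. The combination differed from LPS alone in 0 genes, where 0.360% of all tested genes were higher and 1.42% lower, and 8 of the 58 had an unadjusted p under 0.05, beside 2005 of the 10289 tested genes. The median difference was −0.07, with 35 of the 58 estimates negative, beside 5479 of the 10289. The 95% intervals, not adjusted for the number of genes, reached between 0.218 and 0.615 to either side, and differences within them were not detectable. A difference beyond its interval's reach could also miss the test. Bub1 did so at −0.48, with a reach of 0.343 to either side (limma adjusted p = 0.14). Differences ran from −0.52 for Smc2 (SE 0.22) to 0.39 for Spc25 (SE 0.13). Both combination libraries lay below both LPS libraries for 22 of 58 genes and above them for 11, against 35.6% and 28.5% of all tested genes. In a fit of these groups alone, 11 of the 58 passed, among them Smc2, Bub1 and Spc25, as did 22.4% of all tested genes.

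Without LPS, the antibodies were followed by higher levels of a minority of the set. Of the 58 genes, 10 rose and 1 fell, where 3.04% of all tested genes rose and 10.6% fell, with a median of 0.14 for the set and −0.08 for all tested genes. The 10 were 3 kinetochore genes (Ndc80, Spc25, Nuf2), 2 of the checkpoint (Bub1, Mad2l1), 2 of spindle assembly (Nusap1, Hmmr), 2 of chromosome structure (Smc4, Top2a) and the kinesin Kif4. None of the 10 entry kinases and cyclins passed. No gene of the set changed by 1 or more, where 0.156% of all tested genes rose and 0.437% fell by that much. Both antibody libraries lay above both untreated libraries for 24 of the 58, against 16.7% of all tested genes.

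Smc4 gave the largest rise, from 24.6 and 36.3 FPKM untreated to 57.3 and 53.5 with the antibodies (difference 0.87, SE 0.21, adjusted p = 0.0357). Nusap1 rose from 14.8 and 18.97 to 35.3 and 26.98 FPKM (difference 0.84, SE 0.20, adjusted p = 0.0338). Ndc80 rose from 5.23 and 5.75 to 9.06 and 9.604 FPKM (difference 0.67, SE 0.11, adjusted p = 0.016). In these 3 genes the pairs did not overlap. Hmmr read 13.7 and 19.1 and then 27.5 and 24.6 FPKM (difference 0.65, adjusted p = 0.0474). Spc25 read 9.39 and 11.01 and 15.1 and 17.3 FPKM (difference 0.62, adjusted p = 0.0271). Mad2l1 read 10.01 and 10.3 and 17.1 and 14.8 FPKM (difference 0.60, adjusted p = 0.0252). The differences of Bub1 (0.64), Top2a (0.60), Nuf2 (0.59) and Kif4 (0.49) were of similar size, with Top2a at 43.7 and 56.5 FPKM untreated and 75.8 and 76.2 with the antibodies. Kif4 read 8.37 and 10.6 FPKM untreated, 13.8 and 13.6 with the antibodies, 3.99 and 3.96 with LPS and 3.86 and 4.52 with both. Espl1 was the gene that fell, from 19.1 and 19.9 to 11.6 and 11.5 FPKM (difference −0.71, SE 0.09, adjusted p = 0.0136).

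The antibody calls changed with the libraries and the fit used. The count of rises was 0 with either untreated library left out and in a fit of these groups alone, where 0 of all 10289 tested genes rose or fell. It was 1 without any 1 of the LPS or combination libraries. Without anti-CD36 replicate 1, 16 of the 58 rose and 8 fell, against 14.5% and 21.8% of all tested genes. Without replicate 2, 19 rose and 4 fell, against 7.64% and 19.8%. The difference between the 2 libraries had an SD over the 58 genes of 0.37 for anti-CD36, 0.24 for untreated cells, 0.12 for LPS and 0.14 for the combination. The anti-CD36 pair was spread most widely, with Plk1 at 90.8 and 47.7 FPKM, Mki67 at 80.1 and 50.4 and Cdk1 at 26.5 and 45.03, and replicate 1 carried the mitochondrial share of 15.7%. With mitochondrial genes left out and every library rescaled to the same total FPKM, 1 gene rose and 2 fell, against 1.34% and 12.7% of all tested genes. The median was then 0.04 for the set and −0.16 for all tested genes. What the rescaling and the mitochondrial share each contributed was not tested.

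The antibody differences of the set also ran with base composition. The GC content of the longest transcript ran from 34.8% for Ncapg to 57.0% for Kifc1, with a median of 46.5% for the set and 49.6% for all tested genes. Of the 10 genes that rose, 9 lay between 40.1% and 43.4%, Kif4 was at 48.1%, and Espl1, which fell, was at 56.1%. Spearman's rho between GC content and the antibody difference was −0.74 over the 58 genes and −0.22 over 10034 tested genes. The difference between the 2 untreated libraries had a rho of −0.56 with GC content over the same genes, and that between the 2 combination libraries −0.73. For LPS against untreated cells rho was −0.62, for the interaction 0.76 and for the combination against anti-CD36 0.01. These are descriptions over genes that share libraries, the comparisons with untreated cells also share those libraries, and what base composition contributes to the differences was not tested. With the trend on GC content and length removed from each library, 15 genes of the set rose with the antibodies and none fell. Of all tested genes, 2.51% rose and 3.36% fell.

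**Figure D5:**
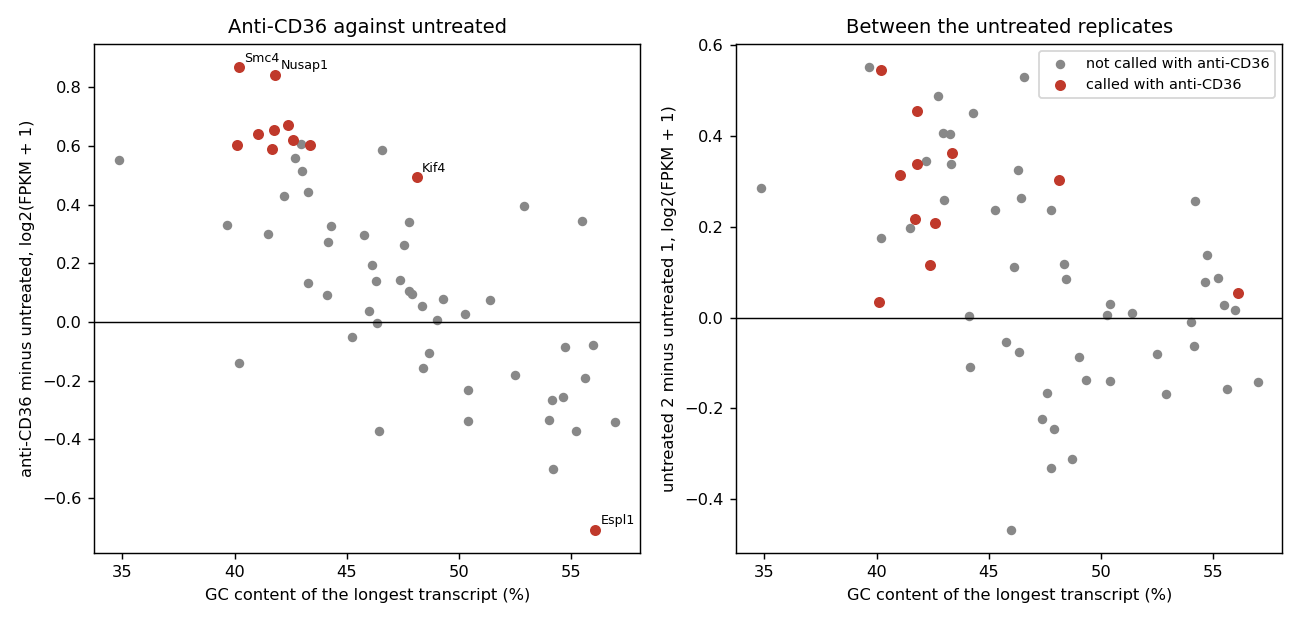
Each point is 1 of the 58 genes, placed by the GC content of its longest transcript (%) and by a difference in log2(FPKM + 1), between anti-CD36 and untreated cells on the left and between the 2 untreated libraries on the right. Points slope downward in both panels (rho −0.74 and −0.56), and the genes called with the antibodies, in red, include Smc4 at 0.87 and Espl1 at −0.71.

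Over the 8 libraries, most of the set followed a single profile. The Pearson r of a gene with the mean standardised profile of the other genes of the set was 0.995 for Kif11 and 0.992 for Melk, and lowest for Smc4 (0.637), Bub3 (0.690), Pttg1 (0.752) and Cdk1 (0.802). Genes outside the set whose pattern was among the nearest to it, of 6749 with a mean of at least 5 FPKM, included Mmd (r = 0.997), Mcm6 (r = 0.997), Mat2a (r = 0.997) and Ifngr1 (r = 0.996). Mcm6, a subunit of the replicative helicase, read 79.5 and 83.2 FPKM untreated, 35.2 and 36.7 with LPS, 93.1 and 84.7 with the antibodies and 35.5 and 37.3 with both. These correlations over 8 libraries in 4 groups mostly record the difference between the groups with and without LPS.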

How the data were processed

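Total RNA of 8 RAW264.7 libraries was taken with Trizol and made into Illumina libraries, per the labels' protocols. The authors deposited 1 table of FPKM values, and HISAT2 2.0.5 with the builds mm10 and hg38 is named in the submitters' processing notes. Which step used hg38, and the counter, annotation and strand setting, are not given in the sources used here. Although the labels also name 10x Genomics, each gene has 1 value in each library, and the data were treated as bulk. Groups came from the labels.

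Genes with at least 1 FPKM in at least 2 libraries were tested on log2(FPKM + 1) with limma 3.58.1 in R 4.3.3 (4 group means over all 8 libraries, variance trend, Benjamini-Hochberg over 10289 genes, calls at adjusted p under 0.05). Fold changes on this scale are understated for low genes. The script was tested on simulated data. Depth was estimated from FPKM steps in genes with 1 transcript, of which 91.8% to 94.3% came out whole within 0.05 reads; most genes have several transcripts, so no count test was run. Gene positions, GC content and lengths came from GENCODE M21 (GRCm38) and promoter windows from RefSeq (GRCm38.p6). Overlapping genes on opposite strands could share reads.

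Values per library are given for the largest LPS differences of each role, the 3 smallest, the genes called in another comparison, Foxm1 and the genes of highest and lowest level. Cdk1, Smc2, Pttg1 and Kif15 were added after their values were seen. The genes, lists and tests were chosen with earlier results of these data known. Alternatives varied the pseudocount, filter, normalization, variance trend, groups fitted, replicate block and libraries left out. One of the 5 genes nearest in pattern to the set is not reported here.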

Additional observations from a re-analysis of the deposited data

How the results depend on the processing

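The falls with LPS held under the alternatives, bar the threshold of 1: 50 of 53 genes called in LPS against untreated cells, 53 of 55 in the combination against anti-CD36 and 51 of 53 in the combination against untreated cells passed in every one in which they were tested. The filter on a mean of at least 5 FPKM left 51 of the 58 genes to test. With 1 library left out in turn, these counts ran from 51 to 55, from 54 to 58 and from 51 to 55. Cenpa was not called without untreated replicate 1 (−0.83, limma adjusted p = 0.0518), and Ncapg was not called without untreated replicate 2 (−0.50) or LPS replicate 1 (−0.58). With mitochondrial genes left out and every library rescaled to the same total FPKM, Cdk1, Bub3 and Smc2 passed as falls with LPS. In that fit 48.1% of all tested genes fell, and their median difference moved from −0.19 to −0.38. None of the 11 antibody calls passed in every alternative that tested it.

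For the antibodies against untreated cells, the 10 rises and 1 fall became 0 and 0 in a fit of these groups alone and 0 and 0 with a difference of at least 1 required. With a library left out, rises ran from 0 to 19 and falls from 0 to 8. Among alternatives chosen after seeing the data, removal of the GC content and length trend gave 15 rises and 0 falls, against 2.51% and 3.36% of all tested genes. Leaving out mitochondrial genes and rescaling gave 1 and 2, against 1.34% and 12.7%. For the combination against LPS, 0 genes became 11 in a fit of these groups alone and 0 to 1 with a library left out. The interaction count ran from 0 to 4 with a library left out. Fits that left a group with 1 library assume that it varies like the others.

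Same-numbered libraries did not deviate alike in all groups. Correlations of their deviations ran from −0.65 for untreated with anti-CD36 to 0.53 for untreated with the combination. Because their signs differ, these correlations cannot settle whether the replicate numbers pair the samples. With the replicate number as a block, 7 genes rose with the antibodies against 10 without it, where 1.58% and 3.04% of all tested genes rose. A crossed pairing of untreated and anti-CD36 libraries, added after seeing the data, gave 16 rises and 2 falls. Of all tested genes, 4.71% rose and 14% fell with it.

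Values that missed the test passed it with the opposite sign in 2 cases. Plk1 in anti-CD36 against untreated cells, −0.08 with all libraries, was 0.38 without anti-CD36 replicate 2 (limma adjusted p = 0.0298) and −0.53 without replicate 1. Bub3 in the combination against untreated cells was 0.40 with the GC content and length trend removed (adjusted p = 0.0359). In both, the cause was not tested. The signs of uncalled values changed 181 times over all comparisons and alternatives. The analysis cannot speak to protein, cell number or time points other than 12 h.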

Other observations

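Genes that act before mitosis were also lower with LPS. Of 40 DNA replication genes, 37 fell and 0 rose, where 37.5% of all tested genes fell, with a median difference of −1.02 on the log2(FPKM + 1) scale, beside −0.19 for all tested genes. Mcm7, a subunit of the replicative helicase, fell by 1.77, from a mean of 82.8 ± 4.04 FPKM to 23.7 ± 2.09 (SD, n = 2), and Cdc6, which loads that helicase, fell by 1.71. In the antibodies against untreated cells, 1 of the 40 rose (Tyms, thymidylate synthase, by 0.54) and 0 fell.

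Genes that set the G1 phase were mixed. Of 12 tested, 8 fell and 3 rose with LPS, where 37.5% of all tested genes fell and 17.0% rose. Ccne2, cyclin E2, fell by 1.88, Cdkn2c, an inhibitor of CDK4 and CDK6, fell by 1.54 and Ccnd1, cyclin D1, fell by 1.04. Cdkn1a, the CDK inhibitor p21, rose by 0.90, from a mean of 82.9 ± 3.65 FPKM to 157 ± 23.8 (SD, n = 2), beside Cdk6 at 0.55 and Ccnd2 at 0.40. Of the 12 differences 4 were positive, and the largest was 1.06, in a gene not named here.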
